A study of Rattus norvegicus with 6 samples.

Results

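The genes of the G1 switch are those of the D-type cyclins, of the kinases they activate and of the inhibitors that hold these kinases back. The 10 genes Ccnd1, Ccnd2, Ccnd3, Cdk4, Cdk6, Cdkn1b, Cdkn1c, Cdkn2b, Cdkn2c and Cdkn2d were chosen by symbol, and 9 of them matched a row among the 37209 gene symbols of the count table. Cdkn2d, the gene of the inhibitor p19INK4d, was not analysed here. RNA was sequenced from primary wild-type BMSCs (bone marrow mesenchymal stem cells) of rat femur, plated stromal cells that can form bone, cartilage and fat. The CSE group was 3 libraries of cells given 3% cigarette smoke extract, the water-soluble part of cigarette smoke, for 6 h, and the Control group was 3 libraries of cells kept in serum-free medium for the same time. Both groups were wild type and had been grown with serum beforehand. The sources used here do not say whether the extract was given in serum-free medium, nor whether the libraries of a group stem from separate animals or cultures. The p-values therefore set the group difference against the spread of these libraries, which may be only technical.

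D cyclins are made when a cell receives growth signals. They bind CDK4 or CDK6, and the paired kinases phosphorylate the retinoblastoma protein, which then releases the E2F factors that switch on the genes of DNA synthesis. INK4 inhibitors (p16, p15, p18 and p19, from Cdkn2a to Cdkn2d) bind CDK4 and CDK6 and keep cyclin D away, whereas CIP/KIP inhibitors (p21, p27 and p57, from Cdkn1a to Cdkn1c) bind whole cyclin-kinase complexes, above all those of CDK2. In marrow stromal cells this balance sets whether a progenitor divides or leaves the cycle before it matures.

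CSE libraries held 19433637 to 22589327 counts and Control libraries 15958621 to 18651194. Levels are CPM, the usual measure of counts relative to library size, here with sizes scaled by the trimmed mean of M-values (TMM). Log2 fold changes (CSE over Control) carry their SE, and p-values come from the quasi-likelihood test of edgeR, adjusted over 13390 tested genes and called under 0.05. Stromal identity was checked against 12 fixed markers, all of which were detected, with a summed level of 31899 to 33232 CPM in CSE libraries and 32905 to 36034 CPM in Control libraries, most of it from Col1a1. Of these, 6 fell and 4 rose with TMM scaling, against 6 lower and 2 higher with total counts alone. With TMM scaling 37.5% of all tested genes fell and 36.3% rose. Blood cell markers were detected as well. The summed level of 12 markers of blood cells and macrophages was 1870 to 1936 CPM in CSE libraries and 1656 to 1704 CPM in Control libraries, and of the 11 tested 4 rose and 3 fell with TMM scaling, against 1 higher and 6 lower with total counts alone. Its largest part came from the lysozyme gene Lyz2, which macrophages express strongly. The summed level of 8 endothelial markers was 7.45 to 9.41 CPM in CSE libraries and 12.1 to 13.1 CPM in Control libraries. Only 3 of them were tested, of which 2 fell, and Emcn was at 0 in every library. The part that these cells have in the results was not tested, and in bulk RNA fewer cells of a type and less RNA per cell cannot be told apart.

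After 6 h of CSE, RNA of all 3 D cyclin genes, of both partner kinase genes and of the inhibitor genes Cdkn1b and Cdkn2c was lower, and no member was higher. Ccnd1 was 5.76-fold lower and Cdk6 2.72-fold lower, while the other members that fell lay between 1.26-fold and 1.82-fold. Cdkn2b, the gene of the inhibitor p15, had almost the same level in both groups. Of the 8 members tested, 7 fell, 0 rose and 1 did not pass. Among all tested genes 73.8% were called in either direction, as 37.5% fell and 36.3% rose. The median log2 fold change was −0.83 over the tested members and −0.02 over all tested genes. In 7 of the 8 tested members the CSE and Control libraries did not overlap, as was the case for 75.8% of all tested genes. Cdkn1c, the gene of p57, was too low to be tested.

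**Figure D1:**
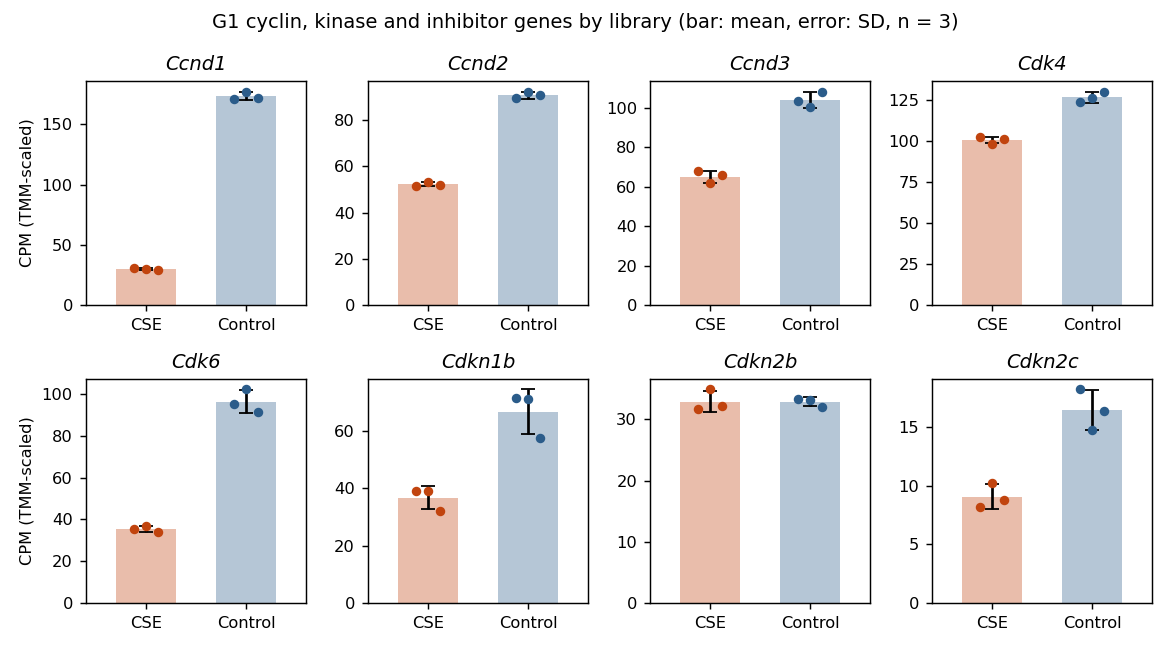
TMM-scaled CPM (y axis) of the 8 tested genes in CSE and Control libraries, with points for single libraries, bars for the mean and error bars for the SD (n = 3 each). In every panel but that of Cdkn2b the 3 CSE points lie below the 3 Control points.

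RefSeq's promoters of rat assembly GRCr8 covered 6 of the 10 genes, while the submitters name another build, Rnor_6.0. Sequence around the annotated start is shown for the kinase gene and the 3 tested inhibitor genes among them, namely Cdk4, Cdkn1b and Cdkn2c, whose RNA fell, and Cdkn2b, whose RNA did not pass. The windows of Ccnd3, which fell too, and Cdkn2d were searched but are not printed. Each window runs from 250 bases before to 50 bases after 1 annotated start, at chr7:64771203-64771502 on the plus strand for Cdk4, chr4:169491254-169491553 on the plus strand for Cdkn1b, chr5:109134806-109135105 on the minus strand for Cdkn2b and chr5:129644842-129645141 on the minus strand for Cdkn2c. Capitals mark exact matches, on either strand, to the motifs searched, which were the E-box CACGTG bound by MYC and its partners, the cyclic AMP response element TGACGTCA, the AP-1 site TGANTCA, the E2F sites TTTCGCGC and TTTGGCGC, the FOXO site TGTTTAC, the CCAAT box and the GC box GGGCGG bound by SP1.
Cdk4: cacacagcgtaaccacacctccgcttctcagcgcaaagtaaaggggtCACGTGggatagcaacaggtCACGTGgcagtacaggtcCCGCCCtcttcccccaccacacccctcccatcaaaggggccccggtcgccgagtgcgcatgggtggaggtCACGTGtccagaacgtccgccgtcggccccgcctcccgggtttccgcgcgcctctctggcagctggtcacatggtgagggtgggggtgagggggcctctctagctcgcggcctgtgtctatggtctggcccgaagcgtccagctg
Cdkn1b: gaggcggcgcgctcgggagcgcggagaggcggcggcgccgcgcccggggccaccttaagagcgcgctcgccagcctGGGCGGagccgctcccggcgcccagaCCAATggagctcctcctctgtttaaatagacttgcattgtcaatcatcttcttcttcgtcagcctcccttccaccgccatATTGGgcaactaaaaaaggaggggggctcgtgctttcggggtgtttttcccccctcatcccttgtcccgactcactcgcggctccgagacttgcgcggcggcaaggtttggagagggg
Cdkn2b: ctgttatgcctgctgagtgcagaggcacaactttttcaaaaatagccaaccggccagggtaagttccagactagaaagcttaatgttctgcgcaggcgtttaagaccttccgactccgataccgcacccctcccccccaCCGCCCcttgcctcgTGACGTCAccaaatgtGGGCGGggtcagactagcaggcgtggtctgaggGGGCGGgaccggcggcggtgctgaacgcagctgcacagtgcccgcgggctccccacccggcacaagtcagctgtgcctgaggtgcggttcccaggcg
Cdkn2c: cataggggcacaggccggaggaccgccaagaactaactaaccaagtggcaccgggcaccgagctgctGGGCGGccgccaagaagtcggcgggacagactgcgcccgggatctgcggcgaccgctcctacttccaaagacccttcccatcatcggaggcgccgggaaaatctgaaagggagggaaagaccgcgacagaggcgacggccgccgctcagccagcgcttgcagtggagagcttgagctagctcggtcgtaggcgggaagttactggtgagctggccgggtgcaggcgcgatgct

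The Cdk4 window held 3 E-boxes and 1 GC box. At least 1 E-box stood in 6.42% of the 33469 RefSeq promoters, and 3 or more in 19 of them, or 0.0568%. The Cdkn1b window held 2 CCAAT boxes, which 37.5% of all promoters have at least once, and 1 GC box. The Cdkn2b window held 1 cyclic AMP response element, found in 1.83% of all promoters, and 3 GC boxes, and the Cdkn2c window held 1 GC box. At least 1 GC box stood in 33.1% of all promoters, and 3 or more in 8.97%. The Ccnd3 window held 1 CCAAT box and 3 GC boxes, and the Cdkn2d window 5 GC boxes. The AP-1 site, found in 7.33% of promoters, the FOXO site, found in 3.78%, and the E2F sites, found in 0.326% and 0.493%, were absent as exact letters from these 6 windows. The motifs overlapped nowhere in the 4 windows printed. A match describes letters and not binding.

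Of the D cyclin genes, Ccnd1 had the largest fold change. Ccnd1, the gene of the D cyclin most tied to growth factor signals, had 31.3, 30.0 and 29.0 CPM in CSE libraries, against 171, 177 and 172 CPM in Control libraries. No CSE library came near a Control library, and within each group the values were close together. Its log2 fold change was −2.52 ± 0.06 (edgeR adjusted p = 2.6e-22), and 2.05% of all tested genes had a lower one. Of all tested genes, 14.4% were called and at least 2-fold lower.

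Ccnd2, a D cyclin gene that mitogens induce in many tissues, had 51.5, 53.2 and 51.9 CPM in CSE libraries and 89.3, 92.2 and 90.6 CPM in Control libraries. The groups were apart, and the log2 fold change was −0.80 ± 0.05 (edgeR adjusted p = 1.81e-12). Ccnd3, the D cyclin gene most prominent in lymphoid and muscle cells, had 67.7, 61.8 and 65.7 CPM in CSE libraries and 103, 100.5 and 108 CPM in Control libraries. These groups too were apart, and the log2 fold change was −0.67 ± 0.06 (edgeR adjusted p = 5.75e-11).

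The mix of D cyclin reads was therefore different in the 2 groups. Ccnd1 made up 20.4% ± 0.557 of the reads of the 3 genes in CSE libraries and 47.1% ± 0.767 in Control libraries (SD, n = 3 each). Ccnd2 made up 35.4% ± 1.23 with CSE and 24.6% ± 0.256 in Control, and Ccnd3 44.2% ± 1.33 with CSE and 28.2% ± 1.01 in Control. Ccnd1 thus had the largest read share in Control libraries and the smallest in CSE libraries, where Ccnd3 had the largest. These are shares of reads and not of transcripts, since longer transcripts give more reads. Summed over the 3 genes, the level was 147 ± 2.79 CPM in CSE libraries and 368 ± 3.66 CPM in Control libraries, a ratio of 0.401 (SD, n = 3 each, exact 2-sided permutation p = 0.1, the smallest this design can give).

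**Figure D2:**
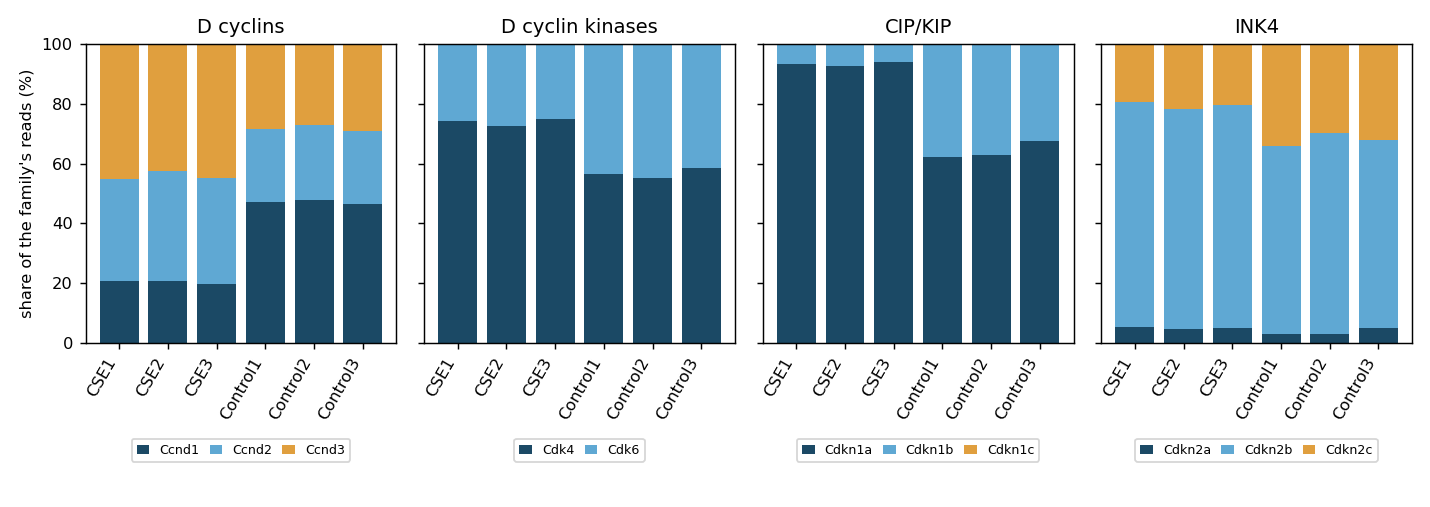
Share of a family's reads (y axis, percent) held by each of its genes in each CSE and Control library, for the D cyclins, their kinases, the CIP/KIP genes and the INK4 genes with a row. Ccnd1 holds on average 20.4% of D cyclin reads with CSE, against 47.1% in Control, and Cdk6 holds 26.1% of kinase reads with CSE, against 43.2% in Control.

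The ratio of 2 genes within 1 library depends on no scaling, and its difference between groups does not depend on gene length. The log2 ratio of Ccnd2 to Ccnd1 reads was 0.72 to 0.84 in CSE libraries and −0.94 to −0.92 in Control libraries, a difference of 1.73. For Ccnd3 over Ccnd1 it was 1.04 to 1.18 with CSE and −0.82 to −0.67 in Control, a difference of 1.85. Both ratios had opposite signs in the groups and were without overlap. Of 8 ratios fixed between members, 7 could be computed, and each of the 6 without overlap had an exact 2-sided permutation p of 0.1, the smallest possible, and 0.117 after Benjamini-Hochberg adjustment over the 7, so that no ratio could pass 0.05. The other, Cdkn1c over Cdkn1b, was −7.52 to −6.04 with CSE and −8.08 to −6.45 in Control, with overlap (difference 0.45, exact permutation p = 0.5, adjusted p = 0.5).

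The kinase genes showed a like contrast. Cdk6, a kinase gene often repressed when cells differentiate, had 35.6, 36.9 and 34.1 CPM in CSE libraries and 95.5, 102 and 91.7 CPM in Control libraries. All CSE values lay far below all Control values, and the log2 fold change was −1.44 ± 0.06 (edgeR adjusted p = 1.46e-16). Cdk4, its closest relative, had 102, 98.4 and 101 CPM in CSE libraries and 123, 126 and 130 CPM in Control libraries. Here the groups were close but did not overlap, and the log2 fold change was −0.33 ± 0.05 (edgeR adjusted p = 1.51e-06). The log2 ratio of Cdk6 to Cdk4 reads was −1.57 to −1.41 with CSE and −0.50 to −0.30 in Control, a difference of −1.11 without overlap. The sum of both kinase genes was 136 ± 1.52 CPM with CSE and 223 ± 5.05 CPM in Control, a ratio of 0.610 (SD, n = 3 each, exact permutation p = 0.1). In the RefSeq table Cdk4 overlaps 1 other counted gene, the tetraspanin gene Tspan31, and reads of the 2 cannot be told apart without a stated strand setting. Tspan31 was called higher with TMM scaling, at 88.4 ± 3.99 CPM with CSE and 79.6 ± 3.72 CPM in Control (SD, n = 3 each, log2 fold change 0.15 ± 0.06, edgeR adjusted p = 0.0169). Ccnd3 and Cdk6 overlap long non-coding RNA genes there, which are not used here.

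Among the CIP/KIP inhibitors, Cdkn1b, the gene of p27, which accumulates in resting cells, had 39.1, 39.0 and 32.2 CPM in CSE libraries and 71.5, 71.2 and 57.8 CPM in Control libraries. The lowest Control value was still above the highest CSE value, and in each group the library numbered 3 stood below the other 2. The log2 fold change was −0.86 ± 0.09 (edgeR adjusted p = 5.49e-07). Cdkn1c, an imprinted growth restraint gene, had 4, 8 and 9 counts in CSE libraries and 4, 15 and 10 in Control libraries. At 0.190 to 0.465 CPM with CSE and 0.236 to 0.791 CPM in Control it was low, and the groups overlapped. It lay near the 0.142 to 0.177 CPM that 3 counts stand for in the libraries with 4 counts and higher in the others. The ratio of its 21 CSE counts to its 29 Control counts, scaled for library size, was 0.687 with an exact 95% interval of 0.373 to 1.25, which covers counting error only, so a difference was not detectable at this depth.

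The third gene of the family, Cdkn1a, whose product p21 is induced by p53 and other stress signals, moved the other way. Its 554, 505 and 514 CPM in CSE libraries stood against 118, 122 and 121 CPM in Control libraries. The groups were far apart, at 2.12 ± 0.05 on the log2 scale (edgeR adjusted p = 6.68e-22). Cdkn1b therefore held 6.55% ± 0.634 of CIP/KIP reads with CSE and 35.5% ± 2.87 in Control (SD, n = 3 each). The log2 ratio of Ccnd1 to Cdkn1b reads was −0.38 to −0.15 with CSE and 1.26 to 1.57 in Control, a difference of −1.67 without overlap. In Control libraries Ccnd1 had more reads than Cdkn1b, and in CSE libraries it had fewer.

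The INK4 genes were divided. Cdkn2c, the gene of p18, had 8.21, 10.3 and 8.73 CPM in CSE libraries and 18.2, 14.8 and 16.4 CPM in Control libraries. The groups were apart, and the log2 fold change was −0.86 ± 0.11 (edgeR adjusted p = 2.52e-07). Cdkn2b, whose product p15 mediates growth arrest by TGF-beta, had 31.6, 34.9 and 32.1 CPM in CSE libraries and 33.4, 33.2 and 32.0 CPM in Control libraries. The Control values lay within the CSE range, and the difference did not pass, at 0.00 ± 0.07 on the log2 scale (edgeR adjusted p = 0.991). The value was −0.19 ± 0.07 with libraries scaled by total counts alone (edgeR adjusted p = 0.0197), the only scaling under which Cdkn2b was called lower.

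Within a library, Cdkn2b was also set against its relative and against its target kinase. Its log2 ratio to Cdkn2c reads was 1.76 to 1.94 in CSE libraries and 0.87 to 1.17 in Control libraries, a difference of 0.86, and its log2 ratio to Cdk4 reads was −1.69 to −1.50 with CSE and −2.02 to −1.89 in Control, a difference of 0.33. Neither ratio overlapped between groups, and both were higher in all 3 CSE libraries. Summed, Cdkn2b and Cdkn2c gave 42.0 ± 2.81 CPM with CSE and 49.3 ± 1.99 CPM in Control (SD, n = 3 each, exact permutation p = 0.1). Cdkn2a, which gives both p16 and the unrelated ARF protein from 1 gene so that counts per gene cannot part them, had 2.23, 2.18 and 2.12 CPM in CSE libraries and 1.53, 1.53 and 2.52 CPM in Control libraries. Its CSE values lay within the Control range, and it did not pass (log2 fold change 0.22 ± 0.26, edgeR adjusted p = 0.459).

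**Figure D3:**
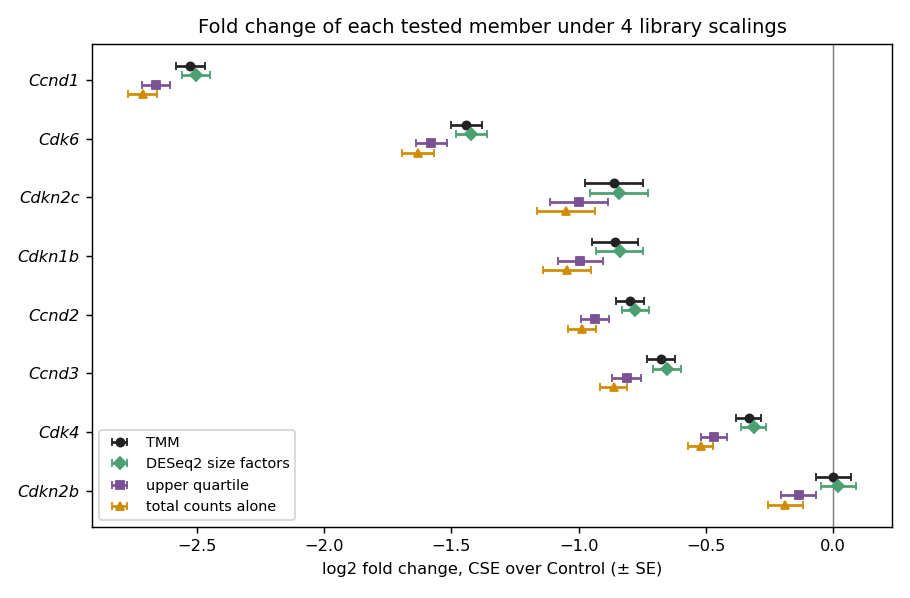
Log2 fold change of CSE over Control (x axis, error bars SE) of the 8 tested genes under 4 library scalings, ordered by the TMM value. The 7 genes that fell stay below 0 under every scaling, while Cdkn2b lies at 0.00 with TMM and at −0.19 with total counts alone.

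In order of fold change the genes ran from Ccnd1 over Cdk6 to Cdkn2c, Cdkn1b, Ccnd2 and Ccnd3, then Cdk4 and Cdkn2b. Cdkn2c, Cdkn1b and Ccnd2 lay close together, at −0.86 ± 0.11, −0.86 ± 0.09 and −0.80 ± 0.05. The gaps between these genes and between Ccnd2 and Ccnd3 were not tested. Scaling by total counts alone moved the median log2 fold change of all tested genes by −0.19 and upper-quartile scaling moved it by −0.14, and the members moved with it. The share of higher genes among all those called was 49.2% with TMM, 40.4% with upper-quartile scaling and 37.3% with total counts alone.

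Further along the same route, cyclin and kinase genes of the later G1 and S steps were mostly lower too. Of 8 tested genes of the cyclin E, cyclin A and CDK2 list, 6 fell and 1 rose, against 37.5% and 36.3% of all tested genes. In the list 1 gene was not called, and the median log2 fold change was −0.90. Ccne2 and Ccne1, the cyclin E genes that start DNA synthesis with CDK2, were at −1.21 ± 0.08 and −0.93 ± 0.10, Cdk2 itself at −0.86 ± 0.08, and Ccna2, the S phase cyclin gene, at −0.96 ± 0.06. Cdk1, the mitotic kinase gene, was at −1.34 ± 0.06. Cdc25a, the gene of a phosphatase that activates CDK2, was the only one of the list to rise, at 0.40 ± 0.07 (edgeR adjusted p = 1.41e-05). The 5 lower genes named here had edgeR adjusted p at or below 3.77e-09, the value of Ccne1.

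Of 12 tested genes of RB and E2F proteins, the targets and effectors of these kinases, 8 fell and 1 rose while 3 were not called, and the median was −0.73. The shares over all tested genes were 37.5% lower and 36.3% higher. The activator genes E2f1 and E2f2 were at −1.12 ± 0.09 and −1.72 ± 0.18, the late repressor genes E2f7 and E2f8 at −1.77 ± 0.10 and −1.87 ± 0.14, and Rbl2, the gene of the RB relative p130, at −1.71 ± 0.11 (edgeR adjusted p at or below 3.88e-09). E2f3, another activator gene, rose by 0.81 ± 0.10 on the same scale (edgeR adjusted p = 1.04e-07). Rb1, named after its values were seen, was at 0.04 ± 0.07 and did not pass (edgeR adjusted p = 0.671).

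Genes of the DREAM and MuvB complexes, which repress cell cycle genes in resting cells and activate them later, went both ways. Of 8 tested, 4 were higher and 2 lower, against 36.3% and 37.5% of all tested genes, and the median was 0.30. With total counts alone 3 were higher and 3 lower and the median was 0.11, and with upper-quartile scaling it was 0.16. The core subunit genes Lin54, Lin37 and Rbbp4 rose, at 1.35 ± 0.06, 1.57 ± 0.09 and 0.67 ± 0.08. The activator genes Foxm1 and Mybl1 fell, at −1.21 ± 0.08 and −0.78 ± 0.07 (edgeR adjusted p at or below 5.71e-08 for these 5 genes). The core subunit gene Lin9 and the activator gene Mybl2 did not pass, at 0.11 ± 0.19 and 0.01 ± 0.06 (edgeR adjusted p = 0.634 and 0.867). Lin52, another core subunit gene, rose by 0.49 ± 0.14 (edgeR adjusted p = 0.0042). With total counts alone Lin52 was not called (edgeR adjusted p = 0.056) and Mybl2 was called lower (edgeR adjusted p = 0.0132). Lin9, Mybl2 and Lin52 were named after their values were seen.

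**Figure D4:**
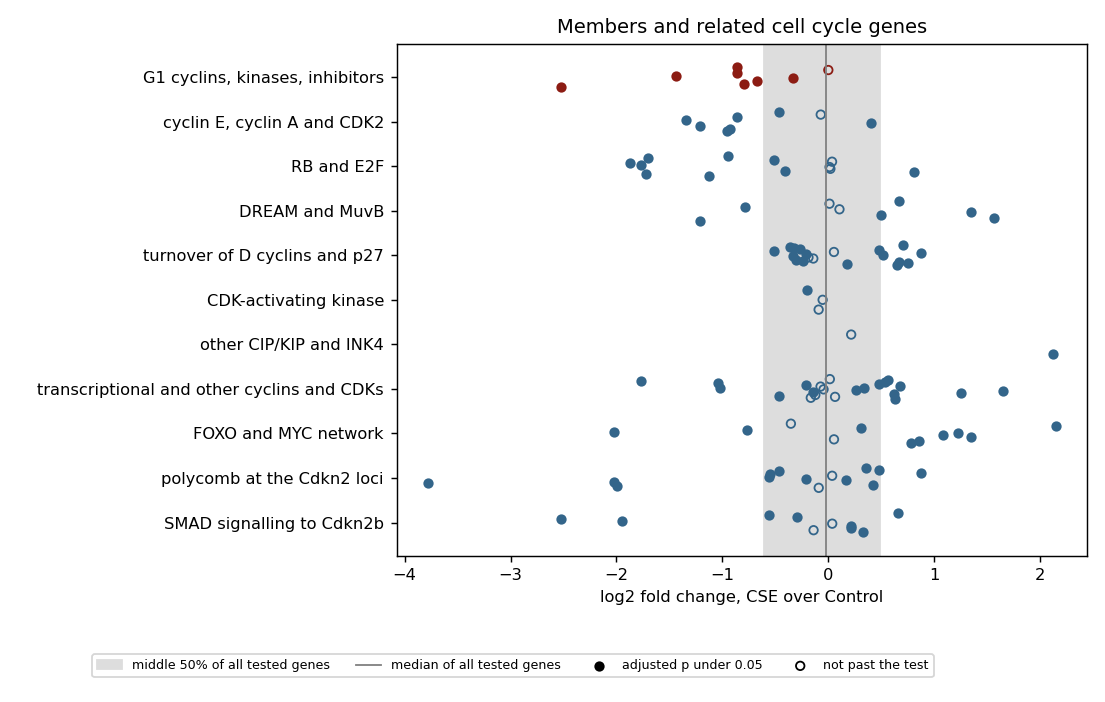
Log2 fold change of CSE over Control (x axis) of each tested member and of the tested genes of 10 related lists (rows), with filled points for genes called at an adjusted p under 0.05. The grey band holds the middle 50% of all tested genes and the line their median of −0.02, and 6 of the 8 members lie to the left of the band.

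Genes that destroy or protect D cyclins and p27 went both ways. Of 19 tested, 8 were higher and 8 lower, against 36.3% and 37.5% of all tested genes, and the median was −0.14. With total counts alone 7 were higher and 10 lower and the median was −0.33, and without CSE replicate 3 it was −0.064. Gsk3b, the gene of a kinase that marks cyclin D1 for export and breakdown, rose by 0.88 ± 0.05, and the ubiquitin ligase scaffold genes Cul1 and Cul3 rose by 0.76 ± 0.05 and 0.67 ± 0.06. Skp1, the gene of the adaptor that joins CUL1 to its F-box proteins, rose by 0.48 ± 0.04, and Usp22, the gene of a deubiquitinase that stabilises cyclin D1, rose by 0.71 ± 0.06 (edgeR adjusted p at or below 6.33e-10 for these 5 genes). Further genes of this list were named after their values were seen. Ambra1, whose product directs D cyclins to a ubiquitin ligase, rose by 0.65 ± 0.07 (edgeR adjusted p = 2.6e-09). Skp2, the gene of the p27 ligase subunit, fell by 0.27 ± 0.10 on the log2 scale (edgeR adjusted p = 0.0230). Rnf123, Ubac1, Ddb1 and Cul4a fell too, at −0.51 ± 0.07, −0.32 ± 0.07, −0.31 ± 0.04 and −0.24 ± 0.05 (edgeR adjusted p at or below 0.000343). Of the 3 genes of the kinase that activates CDKs, Mnat1 fell (−0.20 ± 0.07, edgeR adjusted p = 0.00982) and Cdk7 and Ccnh did not pass with TMM, whereas all 3 were called lower with total counts alone and none without CSE replicate 1.

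Transcription factor genes known to act on the members moved as well. Of 11 tested genes of the FOXO and MYC network 7 rose and 2 fell with TMM scaling, against 36.3% and 37.5% of all tested genes. With total counts alone 6 rose and 3 fell. The median of the network was 0.78, or 0.59 with total counts alone and 0.64 with upper-quartile scaling. Myc, whose product binds E-boxes such as those printed for Cdk4, had 168, 167 and 156 CPM in CSE libraries and 36.3, 36.5 and 37.5 CPM in Control libraries. The groups were far apart, and the log2 fold change was 2.15 ± 0.06 (edgeR adjusted p = 6.39e-21), while Cdk4 fell. The MYC antagonist genes Mnt, Mxd1 and Mga rose too, by 1.08 ± 0.07, 1.23 ± 0.12 and 1.35 ± 0.06, whereas Mxd4 was at −0.77 ± 0.06 and Mxd3 at −2.02 ± 0.24 (edgeR adjusted p at or below 4.1e-08). Foxo3 and Foxo1, named after their values were seen, encode factors that activate Cdkn1b and were higher, at 0.85 ± 0.10 and 0.78 ± 0.13 (edgeR adjusted p at or below 1.13e-05), while Cdkn1b fell. These are RNA levels only, and whether MYC acted on Cdk4 or FOXO factors on Cdkn1b in these cells was not tested.

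For the Cdkn2 genes, 10 tested genes of TGF-beta signalling to Cdkn2b counted 4 higher and 4 lower, against 36.3% and 37.5% of all tested genes. With total counts alone 2 were higher and 6 lower. The median of the list was −0.05, or −0.24 with total counts alone. The ligand genes Tgfb2 and Tgfb3 fell, at −1.95 ± 0.05 and −2.52 ± 0.05, and so did the receptor gene Tgfbr2, at −0.56 ± 0.05. Zbtb17, the gene of MIZ1, which binds the Cdkn2b promoter, rose by 0.66 ± 0.08 (edgeR adjusted p at or below 6.11e-08 for these 4). Tgfb1, another ligand gene, named after its values were seen, did not pass, at 0.04 ± 0.06 (edgeR adjusted p = 0.558). With total counts alone Tgfb1 was called lower, at −0.15 (edgeR adjusted p = 0.0186). Smad2, the gene of a signal carrier of the receptor, rose by 0.33 ± 0.06 (edgeR adjusted p = 9.63e-06). Of 14 tested polycomb genes, whose products silence the Cdkn2a and Cdkn2b locus in growing cells, 5 rose and 7 fell, against 3 and 8 with total counts alone. Among all tested genes 36.3% rose and 37.5% fell with TMM. The median of the polycomb list was −0.15, or −0.34 with total counts alone. Phc2 and Rnf2 rose by 0.87 ± 0.05 and 0.48 ± 0.06, and the chromobox genes Cbx2 and Cbx8 fell, at −1.99 ± 0.19 and −2.03 ± 0.24 (edgeR adjusted p at or below 3.91e-08). Cbx7, another chromobox gene, had 2, 2 and 4 counts in CSE libraries and 34, 33 and 42 in Control libraries. It fell (edgeR adjusted p = 2.66e-08), and with so few CSE counts its fold change is not given.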

How the data were processed

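The authors deposited raw read counts per gene symbol, 1 column per library, as whole numbers with no normalization. HISAT2 2.0.4 and the rat build Rnor_6.0 are named in the submitters' processing notes with no role given. No counting tool, annotation or strand setting is named in the sources used here, so overlapping genes cannot be told apart. Columns were matched to groups by sample title. Of 37209 symbols, 21252 had a count and 13390 passed filterByExpr (minimum count 10) of edgeR 4.0.16 in R 4.3.3. Library sizes were scaled with TMM, with factors of 0.932 to 0.944 for CSE and 1.06 to 1.07 for Control. The groups were compared with the robust quasi-likelihood F test of edgeR, and p-values were adjusted over every tested gene by Benjamini-Hochberg. The SE is the size of the log2 fold change over the square root of F. Ratios of 2 genes in a library used 0.5 added counts and an exact permutation test over the 6 libraries. The members and the 13 gene lists were chosen with earlier results of these data known. Of 145 list genes 144 had a row, with Adgre1 found under its synonym Emr1. Genes named from the cell cycle lists were taken from the up to 5 with the smallest adjusted p and the up to 3 called against the majority of their list. Some of these are left unnamed, and genes from outside them are marked. Alternatives were other scalings, no filter, DESeq2 1.42.0, limma-voom (limma 3.58.1), the replicate number as a block and leaving out each library.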

Additional observations from a re-analysis of the deposited data

How the results depend on the processing

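All 7 members called lower were called lower under every alternative run, which were 3 other scalings, no filter on low counts, DESeq2, limma-voom, the replicate block and leaving out each library, and no member was called higher under any. Only total counts alone added a call, for 8 members lower. Cdkn2b, near 0, turned sign. Its log2 fold change was −0.19 with total counts alone, −0.14 with upper-quartile scaling, −0.0049 without the filter and −0.000805 with limma-voom, and between −0.035 and 0.034 with single libraries left out. Adjusted p for Cdkn2b ranged from 0.0197 to 0.994 over all alternatives. For the other tested members the highest adjusted p was 8.09e-05, that of Cdk4. The log2 ratio of Cdkn1c to Cdkn1b differed by 0.45 between groups, and by −0.044 to 0.88 with single libraries left out. It rests on at most 15 Cdkn1c counts per library, and depth limits it. Replicate numbers are shared by the groups. Deviations of same-numbered libraries correlated at only 0.02, −0.03 and 0.00 over genes, which shows no pairing but cannot exclude it with 3 libraries per group. Cdkn1b was at −0.86 ± 0.07 with the replicate block and at −0.86 ± 0.09 without it. With the replicate block 4833 genes were higher and 4956 lower, against 4862 and 5026 without it, and Ccnd1 was at −2.53. In the list of transcriptional cyclins and CDKs 12 genes were lower with total counts alone and 10 with upper-quartile scaling, against 6 with TMM.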

Other observations

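Cyclins and CDKs that act in transcription or outside the cycle went both ways. Among 22 tested genes 10 were higher and 6 lower with TMM scaling, 9 and 10 with upper-quartile scaling and 9 and 12 with total counts alone. Over all tested genes 36.3% were higher and 37.5% lower with TMM. The median log2 fold change of the list was 0.04, or −0.15 with total counts alone. Cyclin L1 gene Ccnl1, linked to splicing, rose by 1.25 ± 0.08, and Cdk13, the gene of a kinase of RNA polymerase II, rose by 0.67 ± 0.05. Cdk5, best known from neurons, was at −1.77 ± 0.12 and Cdk10 at −1.02 ± 0.08 (edgeR adjusted p at or below 3.38e-10 for these 4 genes). Cdk18, another of the falls, was at −1.04 ± 0.16 (edgeR adjusted p = 2.88e-06).

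Over the 6 libraries, the tested genes nearest to Ccnd1 by Euclidean distance in centred log2 CPM were Adamts5, an aggrecan-cleaving protease gene (distance 0.0733), Phldb2 (0.0985) and the ligand gene Tgfb3 (0.109), with log2 fold changes of −2.57 ± 0.12, −2.53 ± 0.05 and −2.52 ± 0.05. Those nearest to Cdkn2b were Exoc6b, Nudt4 and Ahcyl1, at distances of 0.0583 to 0.0587. These distances describe likeness only, and in a design of 2 groups they mostly follow the difference between groups.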
